A study of Mus musculus with 3 samples.

Results

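The Zfp genes are the mouse genes named for a zinc finger protein and a number. Their H3K36me3, a methyl mark that Setd2 leaves on histone H3 behind the elongating polymerase, was followed in regulatory T (Treg) cells. The members were the protein-coding autosomal genes of GENCODE M21 whose symbol is Zfp and a number, without Zfp36, that had the midpoint of at least 2 peaks of the deposited peak table in the gene body. There were 219 such genes among 357 coding autosomal Zfp genes, and they were 219 of the 8500 coding autosomal genes that met the same rule. Treg cells sorted as CD3+CD4+Foxp3-YFP+ came from the spleen and the large intestine (LI) of adult Foxp3Cre-YFP mice of the C57BL/6 strain at steady state, in which the regulatory sequences of Foxp3 drive Cre and the yellow fluorescent reporter, and both tissues shared this genotype. Each tissue gave 1 library, from the pooled cells of 7 male and 7 female mice, by chromatin immunoprecipitation sequencing (ChIP-seq) with 1 antibody against H3K36me3. Each difference given here is between 2 libraries, without replicates, a test or a p-value.

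Most Zfp genes code for C2H2 zinc finger proteins, in which each finger holds a zinc ion between a pair of cysteines and a pair of histidines and reads a few bases of DNA. The largest class also carries a KRAB box, which binds Trim28 (KAP1), the scaffold that brings the histone methyltransferase Setdb1 and H3K9me3 to transposable elements and imprinted regions. KRAB zinc finger genes arose by repeated local duplication and lie in clusters, and their fingers are usually coded by a single long last exon. These genes are known for H3K9me3 over that exon as well, so H3K36me3 along them is read beside their exon structure below.

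All values are the mean coverage in RPKM (read coverage per kilobase, scaled to depth) of a merged peak, summed over the peaks of a gene in each library. To each sum 0.5 RPKM was added, and the log2 ratio of LI over spleen was centred on that of the column totals, so 0 means the same share of the total. The bracketed range after a ratio is an approximate 95% interval that covers counting error only and takes each read as 200 bp. From the smallest step of the values, the depth in units of 1e+06 mapped reads was 29.6 in spleen and 38.1 in LI. All 9 Treg and T cell markers had at least 2 peaks. A peak was found in 3 of 6 B cell, 1 of 6 myeloid, 1 of 5 CD8 and NK cell and 2 of 6 intestinal epithelium markers. The epithelial markers summed to 29.9 RPKM in spleen and 59.8 RPKM in LI, with Krt8, Krt20, Cdh1 and Muc2 without a peak, and the part of other cells in the results below was not tested.

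The letters that repeat in the long last exons show a stretch of sequence that part of these genes share. The commonest 14-base word of the members' last coding exons, ACTGGAGAGAAACC, falls where the linker between neighbouring fingers is coded. It stood in the last coding exon of 68 of the 219 members (31.05%), with 180 copies in all and up to 9 in a gene. It was in 59 of the 123 members with at least 3 fingers and KRAB letters. Of the other 8281 coding genes with at least 2 peaks, 26 had it (0.314%), and all 26 had at least 3 finger matches in their protein. Among other genes with a last coding exon of at least 1 kb the share was 22 of 408 (5.392%). The word was chosen as the commonest of the members, so its share there is a description, and it was not found on the other strand in any of these exons. The first copy in the named genes described below that hold the word is given with 8 bases on each side, from GRCm38 (mm10), 5′ to 3′ on the strand of the gene, with the shared word in capitals.
Zfp708 (chr13:67071091-67071120, minus strand): gaattcatACTGGAGAGAAACCatataagt
Zfp386 (chr12:116059943-116059972, plus strand): gaatccacACTGGAGAGAAACCctacaggt
Zfp287 (chr11:62714726-62714755, minus strand): gaattcacACTGGAGAGAAACCctacaaat
Zfp420 (chr7:29874754-29874783, plus strand): aggtccacACTGGAGAGAAACCctttgaat
Zfp383 (chr7:29915355-29915384, plus strand): gaatccacACTGGAGAGAAACCctatgagt
Zfp942 (chr17:21929010-21929039, minus strand): caattcatACTGGAGAGAAACCttacaaat
Zfp983 (chr17:21662443-21662472, plus strand): gagttcatACTGGAGAGAAACCttataaat
The copies printed for Zfp386, Zfp287, Zfp420, Zfp383 and Zfp942 lay under a peak and those for Zfp708 and Zfp983 did not. Over all members, 109 of the 180 copies (60.6%) lay under a peak.

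The peaks of the members lay mostly on sequence that reads of 75 nt place uniquely. The median member had 99.97% of the 75-base words of its peaks at a single place in the genome, and 7 members were below 90%, with the lowest value, 76.3%, at Zfp959. Of all 357 Zfp genes, 104 had no peak and 34 had 1 peak. The last coding exon had a median of 99.7% unique words in the 104 genes without a peak and of 100% in the members, and among finger genes without KRAB letters the median was 100% in both. The KRAB genes differed in this measure. Among the 204 genes with KRAB letters, the 65 without a peak had a median of 87.0% unique words in the last coding exon, against 100% for the 123 with at least 2 peaks. Over the whole gene body the medians of the same KRAB genes were 84.6% and 97.9%. The part of read placement in the absence of peaks was not tested.

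Having peaks was more common for Zfp genes than for coding genes at large. At least 2 peaks were found in 61.3% of the 357 Zfp genes and in 40.9% of all 20807 coding autosomal genes. The share was 60.8% of the 204 Zfp genes with another Zfp gene within 100 kb, called clustered here, and 62.1% of the 153 single genes. By protein class it was 60.3% of 204 genes with fingers and KRAB letters, 64.5% of 110 with at least 3 fingers and no KRAB letters, and 58.1% of 43 with fewer fingers. All 219 members also passed the filter of 20 RPKM over both libraries. The 36 members with exactly 2 peaks summed to between 25.5 and 114 RPKM over both libraries (median 46.0), and the 34 genes with 1 peak, just outside the rule, to between 10.4 and 58.3 RPKM (median 22.6).

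As a group the Zfp genes held close to the same share of H3K36me3 in both tissues. The median log2 ratio of LI over spleen was 0.01, with quartiles at -0.23 and 0.22, and 113 of the 219 members (51.6%) were higher in LI. The other 8281 coding genes had a median of 0.00, with quartiles at -0.20 and 0.22, and 50.3% of them were higher in LI. Over 2-fold higher in LI were 3 members, beside 3.06% of all 8500 genes, and 1 member was over 2-fold higher in spleen, beside 1.73%. The counting interval lay above 0 in 29 members (13.2%, beside 18% of all genes) and below 0 in 24 (11.0%, beside 15.6%). The members had wider intervals, with a median standard error of 0.20 on the log2 scale against 0.15 for the other coding genes. When a gene was read by its strongest peak alone, 11 members were over 2-fold higher in LI and 5 in spleen, and the direction turned in 73 members (33.3%), against 27.4% of the other coding genes. No 2-fold count over all genes was made by the strongest peak, so those counts have no background share beside them.

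**Figure D1:**
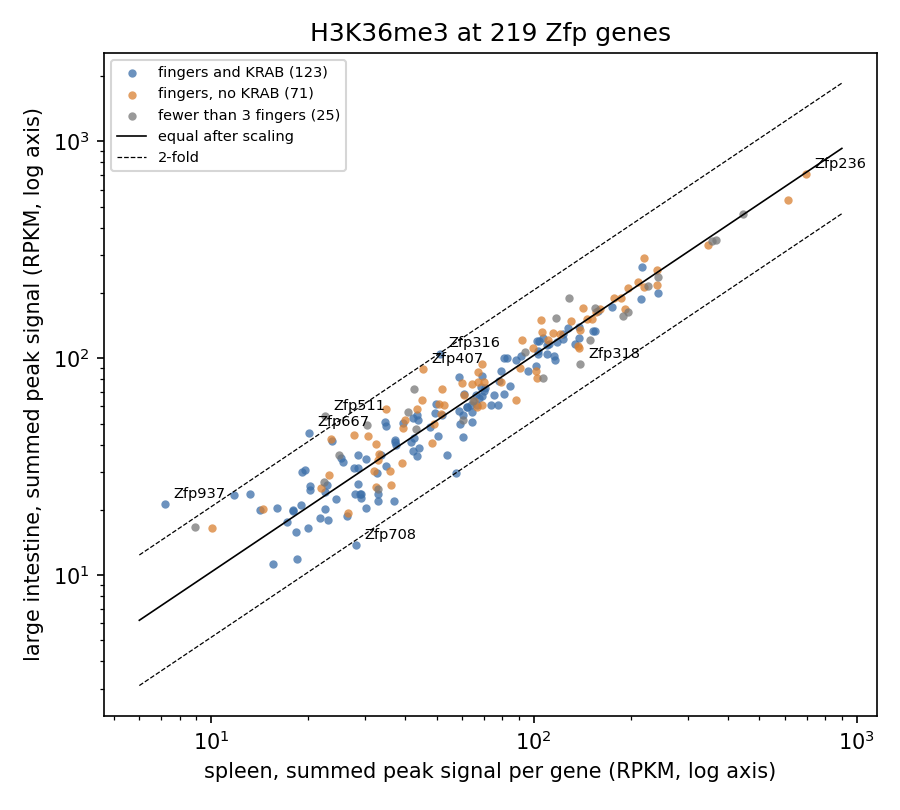
Summed H3K36me3 peak signal (RPKM, both axes logarithmic) of each of the 219 Zfp genes in spleen (x axis) and LI (y axis), coloured by protein class, with 1 library per tissue. The solid line marks equal shares of the total and the dashed lines 2-fold, and 4 genes lie beyond them: Zfp937, Zfp511, Zfp667 and Zfp708.

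The 4 genes past 2-fold all had low sums. Zfp937, a KRAB gene with 2 peaks, had 7.22 RPKM in spleen and 21.3 RPKM in LI, a log2 ratio of 1.45 [-0.02 to 2.93]. Zfp511, a gene with fewer than 3 finger matches, had 22.6 and 54.3 RPKM over 4 peaks, a log2 ratio of 1.20 [0.58 to 1.83]. All 4 of its peaks were higher in LI, and 1 of them also lay in another coding gene. Zfp667, a KRAB gene, had 20.1 and 45.4 RPKM over 4 peaks, all higher in LI, a log2 ratio of 1.11 [0.32 to 1.90]. Zfp708, a KRAB gene with 5 copies of the word printed above, had 28.1 RPKM in spleen and 13.8 RPKM in LI, a log2 ratio of -1.05 [-2.06 to -0.03]. Its 3 peaks lay in the last part of the gene and also within another coding gene, so the signal could not be given to either alone. After correction for the GC content of the peaks, described below, the ratio of Zfp708 was -0.69, and those of Zfp937, Zfp511 and Zfp667 were 1.92, 1.06 and 1.16.

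Among the 127 members with at least 100 RPKM, the highest ratios were those of Zfp316, Zfp407, Zfp839, Zfp523, Zfp787 and Zfp287. Zfp316, a KRAB gene, had 51.1 RPKM in spleen and 105 RPKM in LI, a log2 ratio of 0.99 [0.50 to 1.47], and 6 of its 7 peaks were higher in LI. Zfp407, a gene with 21 finger matches known from glucose uptake in fat cells, had 45.5 and 88.9 RPKM, a log2 ratio of 0.91 [0.42 to 1.41]. Each of the 6 peaks at Zfp407 was higher in LI. Its peaks covered 0.887% of a long gene, and the longest, over the last coding exon, was 16.6 RPKM in spleen and 20.7 RPKM in LI. Larger differences were at shorter peaks, such as the one near the start with 4.08 RPKM in spleen and 20.7 RPKM in LI. Weighted by peak length, the log2 ratio of Zfp407 was 0.44.

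Zfp839 had 42.5 RPKM in spleen and 72.6 RPKM in LI, a log2 ratio of 0.72 [0.24 to 1.20], with 5 of 6 peaks higher in LI. Zfp523 had 129 and 190 RPKM, a log2 ratio of 0.52 [0.24 to 0.79], with 11 of 13 peaks higher in LI. Zfp787 had 45.0 and 64.5 RPKM, a log2 ratio of 0.47 [0.06 to 0.88], with all 4 peaks higher in LI. All of these, and Zfp287, kept a positive ratio after GC correction, and their peaks had a median GC content of 54.6%. Zfp287 had 105 RPKM in spleen and 150 RPKM in LI, a log2 ratio of 0.46 [0.17 to 0.75], and 0.18 when its 13 peaks were weighted by length.

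The lowest ratios among these 127 members were those of Zfp318, Zfp386, Zfp800, Zfp654, Zfp942 and Zfp35. Zfp318, which mature B cells need to express IgD, had 139 RPKM in spleen and 93.9 RPKM in LI, a log2 ratio of -0.61 [-0.97 to -0.25]. Of its 12 peaks, 11 were lower in LI after scaling. The exception was its strongest peak, at 73.5% of the gene length, with 9.03 RPKM in spleen and 20.9 RPKM in LI, so that this peak alone gave a log2 ratio of 1.12. The B cell markers summed to 60.2 RPKM in spleen and 53.4 RPKM in LI, with Ms4a1 and Blk among those without a peak and the markers with a peak not moving one way. Cd79a had 47.2 RPKM in spleen and 29.8 RPKM in LI, Cd79b had 8.96 and 13.7 RPKM, and Pax5 had 4.05 and 9.91 RPKM. The cells were sorted as CD3+CD4+Foxp3-YFP+, and no purity is given for these pools. The part of B cells in the difference at Zfp318 was not tested.

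Zfp386, a KRAB gene, had 60.2 RPKM in spleen and 43.5 RPKM in LI over 5 peaks, none of them higher in LI, a log2 ratio of -0.51 [-0.90 to -0.12]. Zfp800 had 88.2 and 64.01 RPKM over 9 peaks, a log2 ratio of -0.50 [-0.90 to -0.10]. Zfp654 had 107 and 80.9 RPKM over 11 peaks, a log2 ratio of -0.44 [-0.82 to -0.07], but its strongest peak went the other way, with a log2 ratio of 0.29. Zfp942 and Zfp35 were at -0.40 [-0.81 to 0.02] and -0.39 [-0.76 to -0.01]. All 6 of these genes kept a negative ratio after GC correction, from -0.27 at Zfp654 to -0.63 at Zfp318, and their peaks had a median GC content of 41.5%.

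The members of highest summed signal were long genes and differed little between the tissues. Zfp236, with 29 finger matches, had 698 RPKM in spleen and 707 RPKM in LI over 49 peaks, a log2 ratio of -0.03 [-0.13 to 0.07]. Zfp831 had 445 and 463 RPKM over 32 peaks, a log2 ratio of 0.01 [-0.11 to 0.13], and peaks covered 82.6% of its gene body. Zfp638, which helps silence incoming retroviral DNA with the HUSH complex, had 368 and 351 RPKM over 44 peaks, a log2 ratio of -0.11 [-0.32 to 0.10]. Zfp106, an RNA-binding protein, had 357 and 347 RPKM over 32 peaks, a log2 ratio of -0.09 [-0.25 to 0.08]. Zfp827 was the exception, with 611 RPKM in spleen and 540 RPKM in LI over 58 peaks, a log2 ratio of -0.22 [-0.38 to -0.07].

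Of a list of 23 Zfp genes with known roles, 21 were members, and 16 of the 21 were lower and 5 higher in LI, with a median log2 ratio of -0.11. The interval lay below 0 in 6 of the 21, beside 15.6% of all genes, and above 0 in 4, beside 18%. After GC correction the median was -0.01, with 12 lower and 9 higher. Zfp57, which protects imprinted regions, and Zfp683 (Hobit), a factor of tissue-resident lymphocytes, had no peak in either tissue.

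Among the genes known for silencing by the KRAB pathway, Zfp568, which represses a placental promoter of Igf2, had 216 RPKM in spleen and 262 RPKM in LI over 22 peaks, a log2 ratio of 0.23 [0.00 to 0.46]. Zfp809, which recognises the primer binding site of murine leukaemia viruses, had 60.3 and 54.9 RPKM, a log2 ratio of -0.18 [-0.63 to 0.26]. Zfp445, which maintains genomic imprints together with Zfp57, had 62.2 and 59.3 RPKM, a log2 ratio of -0.11 [-0.36 to 0.14]. The intervals of Zfp809 and Zfp445 spanned 0 and that of Zfp568 lay just above it.

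Among genes known from lymphocytes and signalling, Zfp335, which thymocytes and naive T cells need to mature, had 115 RPKM in spleen and 131 RPKM in LI over 4 peaks, a log2 ratio of 0.14 [0.02 to 0.27]. It held the longest peak of any member, chr2:164882608-164903658 (mm10), 21051 bp with 36.2 RPKM in spleen and 43.0 RPKM in LI, which runs past the end of the gene. Zfp335 is on the minus strand, 1 of its 4 peaks also lay in another coding gene, and after GC correction its ratio was -0.05. Zfp91, an atypical ubiquitin ligase of the noncanonical NF-κB pathway, had 137 RPKM in spleen and 115 RPKM in LI over 13 peaks, a log2 ratio of -0.31 [-0.60 to -0.01], which became -0.004 after GC correction. The peaks of Zfp91 had a GC content of 40.1%.

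Among regulators of transcription and chromatin, Zfp217, a partner of the CoREST and Lsd1 complex, had 69.2 RPKM in spleen and 94.1 RPKM in LI, a log2 ratio of 0.40 [0.12 to 0.67]. All 5 of its peaks were higher in LI, yet both long peaks in the last part of the gene differed little (26.9 and 29.5 RPKM over 8551 bp). Weighted by length, the ratio of Zfp217 was 0.06. Zfp609, which links cohesin loading to the Integrator complex, had 189 and 157 RPKM, a log2 ratio of -0.31 [-0.57 to -0.05]. Zfp281, Zfp148 and Zfp384, factors that bind GC-rich or homopolymer sequences, were at -0.12, -0.11 and -0.02, and Zfp131, a BTB factor, was at 0.05, all with intervals that spanned 0.

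Among genes of RNA processing and cell division, Zfp207 (BuGZ), a protein of spindle assembly, had 150 RPKM in spleen and 121 RPKM in LI over 12 peaks, 11 of them lower in LI, a log2 ratio of -0.35 [-0.58 to -0.12]. Its peaks covered 83.7% of the gene body at a GC content of 36.9%, and GC correction turned the ratio to 0.09. Zfp326, a subunit of the DBIRD complex that couples elongation to splicing, had 195 and 164 RPKM, a log2 ratio of -0.30 [-0.57 to -0.03], and -0.24 after GC correction. Zfp706 had 32.9 and 24.99 RPKM, a log2 ratio of -0.44 [-0.69 to -0.18], and -0.21 after GC correction. Zfp451, a SUMO ligase, Zfp277 and Zfp292 were at -0.11, -0.08 and -0.23, with intervals that spanned 0.

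The ratio of a member followed the GC content of its peaks, as it did for other genes. The 52 members with a GC content under 42% had a median log2 ratio of -0.23, and 28.8% of them were higher in LI. The 97 members between 42% and 48% had a median of -0.04, and the 70 members at 48% or more had a median of 0.21, with 80.0% higher in LI. The other coding genes had medians of -0.24, -0.07 and 0.14 in the same ranges. Members were poorer in GC, with a median of 45.3% against 47.9%. After the log2 values of all peaks were centred in 20 bins of GC content, the median of the members was 0.04 and 18.7% of them changed direction, against -0.01 and 18.3% for the other coding genes. What sets this relation in the libraries was not tested.

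**Figure D2:**
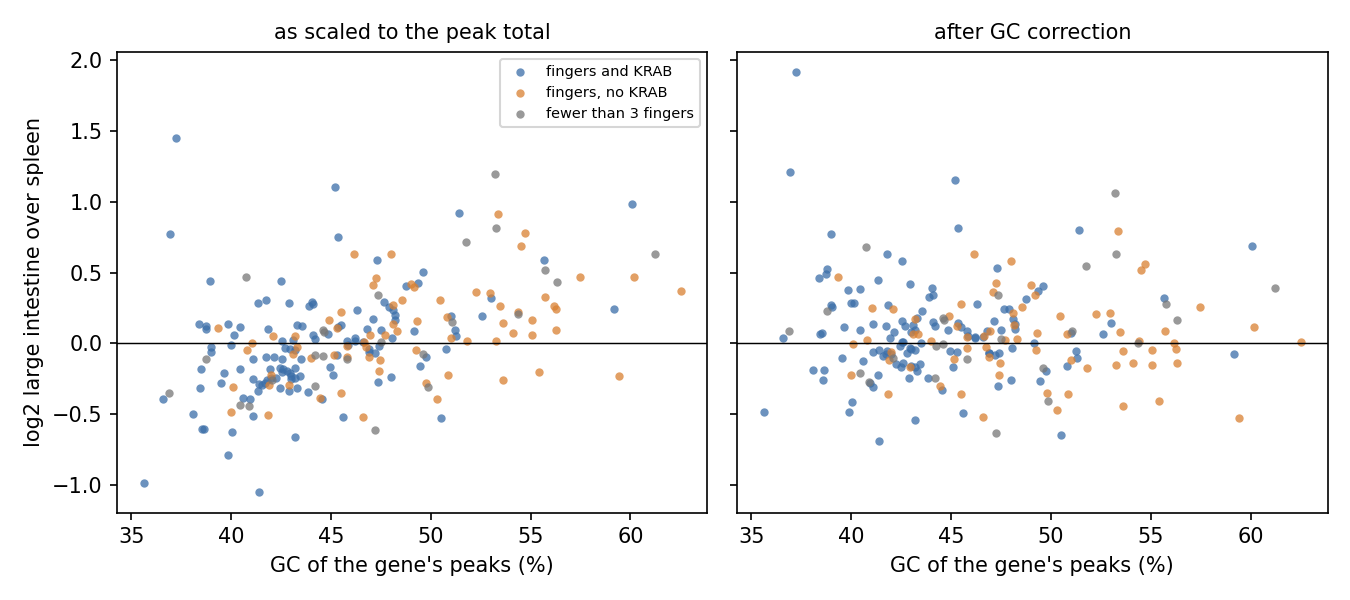
Log2 ratio of LI over spleen (y axis) of the 219 Zfp genes against the GC content of their peaks in percent (x axis), before (left) and after (right) GC correction, coloured by protein class. On the left the medians rise from -0.23 under 42% GC to 0.21 at 48% or more, and on the right the 3 ranges have medians of 0.05, 0.03 and 0.07.

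The protein classes differed in both GC content and ratio. The 123 members with at least 3 fingers and KRAB letters had a median log2 ratio of -0.04, and 45.5% were higher in LI. The 71 members with at least 3 fingers and no KRAB letters had a median of 0.06, with 62.0% higher in LI, and the 25 members with fewer fingers had a median of 0.01. The KRAB members had a median GC content of 43.2% and the finger genes without KRAB letters 48.1%. After GC correction the medians were 0.05, 0.02 and 0.08. With the narrower KRAB pattern written first, which found 102 KRAB members, the KRAB median was -0.04 as well.

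Clustered and single genes both had medians close to 0. The 124 clustered members had a median log2 ratio of 0.03, with quartiles at -0.23 and 0.24, and 54.0% were higher in LI. The 95 single members had a median of -0.02, with quartiles at -0.22 and 0.17, and 48.4% were higher in LI. After GC correction the medians were 0.07 and 0.02. Among KRAB members alone, the 97 clustered genes had a median of -0.01 and the 26 single genes of -0.18, and after GC correction 0.05 and 0.06. Clusters of at least 2 Zfp genes numbered 49, and 29 of them held at least 2 members and 7 at least 5. Chromosome 7 alone held 57 of the members.

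Individual clusters did not all share this balance. In the cluster with the most members, chr7:29768552-30169750 (mm10), 13 of 15 Zfp genes were members, and 9 of the 13 were higher in LI, with a median log2 ratio of 0.04. Its members ran from Zfp383, with 26.4 RPKM in spleen and 18.8 RPKM in LI and a log2 ratio of -0.53 [-1.41 to 0.36], to Zfp420, with 14.5 and 20.1 RPKM and a log2 ratio of 0.41 [-0.47 to 1.29]. The intervals of Zfp383 and Zfp420 both spanned 0. Zfp568 and Zfp82, of higher signal, lay between them in ratio, at 0.23 and 0.16.

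The cluster at chr13:67038596-67553830 leaned to the spleen. Of its 14 Zfp genes 11 were members, all with KRAB letters, and 10 of the 11 were lower in LI, with a median log2 ratio of -0.38. The sum over the cluster came to 522 RPKM in spleen and to 436 RPKM in LI, a log2 ratio of -0.30. Of the 11 intervals, 4 lay below 0, those of Zfp708, Zfp712, Zfp58 and Zfp748, beside 15.6% of all genes and 43.1% of other coding genes with a GC content under 42%. Zfp712 had 53.8 RPKM in spleen and 35.7 RPKM in LI over 5 peaks, a log2 ratio of -0.63 [-1.14 to -0.12]. Zfp748 had 64.6 and 50.9 RPKM over 6 peaks, a log2 ratio of -0.38 [-0.74 to -0.03]. The exception was Zfp595, with 37.2 and 41.2 RPKM and a log2 ratio of 0.10 [-0.36 to 0.56]. The peaks of this cluster had a median GC content of 41.4%, and after GC correction the median ratio was -0.12, with 8 of 11 members lower in LI. Several neighbouring gene bodies overlap here, and peaks of Zfp708, Zfp595, Zfp953, Zfp456, Zfp58 and Zfp87 were each shared with another coding gene.

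The cluster at chr17:21383748-22225616 had an even lower median GC content, 40.7%, without that lean. Of its 15 Zfp genes 10 were members, all with KRAB letters, and 5 were higher in each tissue, with a median log2 ratio of 0.03 and, after GC correction, 0.32. Its members ran from Zfp942, with 77.5 RPKM in spleen and 60.7 RPKM in LI and a log2 ratio of -0.40, to Zfp983, with 34.8 and 48.9 RPKM and a log2 ratio of 0.44 [-0.32 to 1.20]. In the peaks of Zfp983 89.8% of the 75-base words were unique. Zfp52 and Zfp51, of higher signal, had 88.2 and 98.6 RPKM and 123 and 122 RPKM, with log2 ratios of 0.12 and -0.06. The cluster at chr7:24081924-24316666 had 6 members with a median of 0.25, or 0.17 after GC correction, and its highest member, Zfp93, had 11.8 and 23.5 RPKM, a log2 ratio of 0.92 [0.11 to 1.73].

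**Figure D3:**
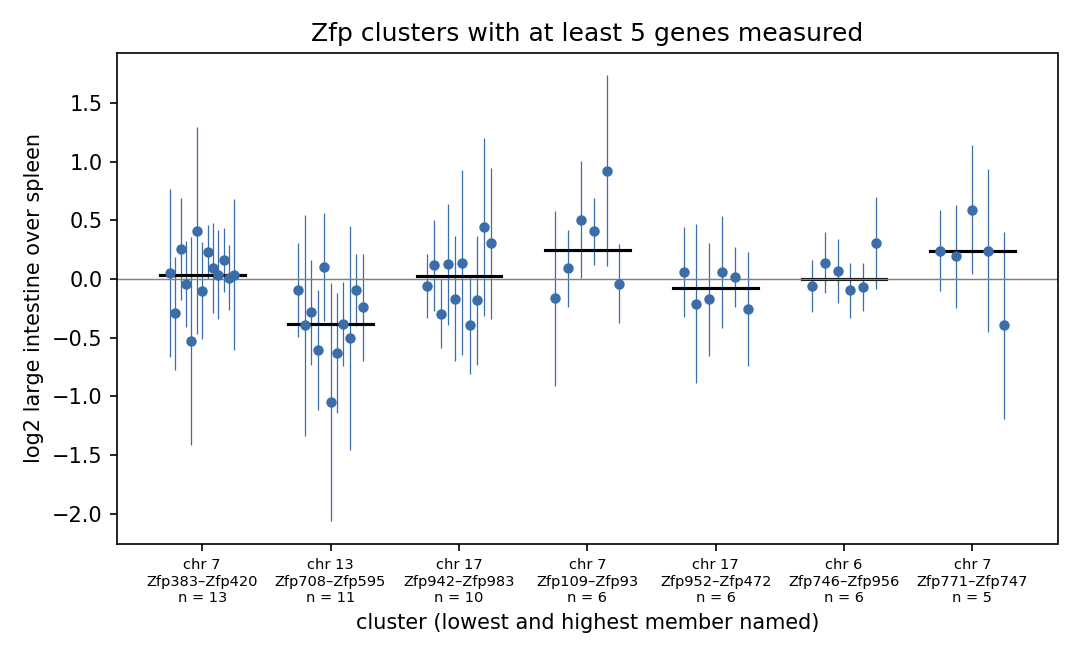
Log2 ratio of LI over spleen (y axis) of each member in the 7 clusters with at least 5 members, with points for genes, thin bars for approximate 95% counting intervals and thick bars for cluster medians. The chromosome 13 cluster has 10 of 11 points below 0 and a median of -0.38, and the chromosome 17 cluster with Zfp942 and Zfp983 has 5 points on each side.

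Along the gene, H3K36me3 of the members rose from the start towards the end, as in other genes. Averaged over all members it fell off sooner before the end, with an earlier highest bin in the KRAB members than in the others. The signal-weighted centre of the peaks lay at 0.66 of the gene length, with quartiles at 0.56 and 0.76, and at 0.65 in the other coding genes. The part of the gene past 75% of its length held a median of 41.9% of the signal, against 39.4% in the other coding genes. The centre was at 0.66 in spleen and in LI alike. When each peak counted once, the median centre was 0.58 and the part past 75% held 28.6%. A peak within 500 bp of the start was found in 26 members (11.9%), against 14.3% of other coding genes.

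Averaged over genes, the mean signal in the bin of the gene from 80% to 85% was 8.30 RPKM in spleen and 9.04 RPKM in LI in the members, the highest of 20 bins in each library. The last bin had 4.75 and 5.25 RPKM. In the other coding genes the highest bin was that from 90% to 95%, with 10.01 and 10.9 RPKM, and the last bin still had 8.93 and 9.79 RPKM. These levels are means over all bases of the bin, with bases outside peaks at 0.

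**Figure D4:**
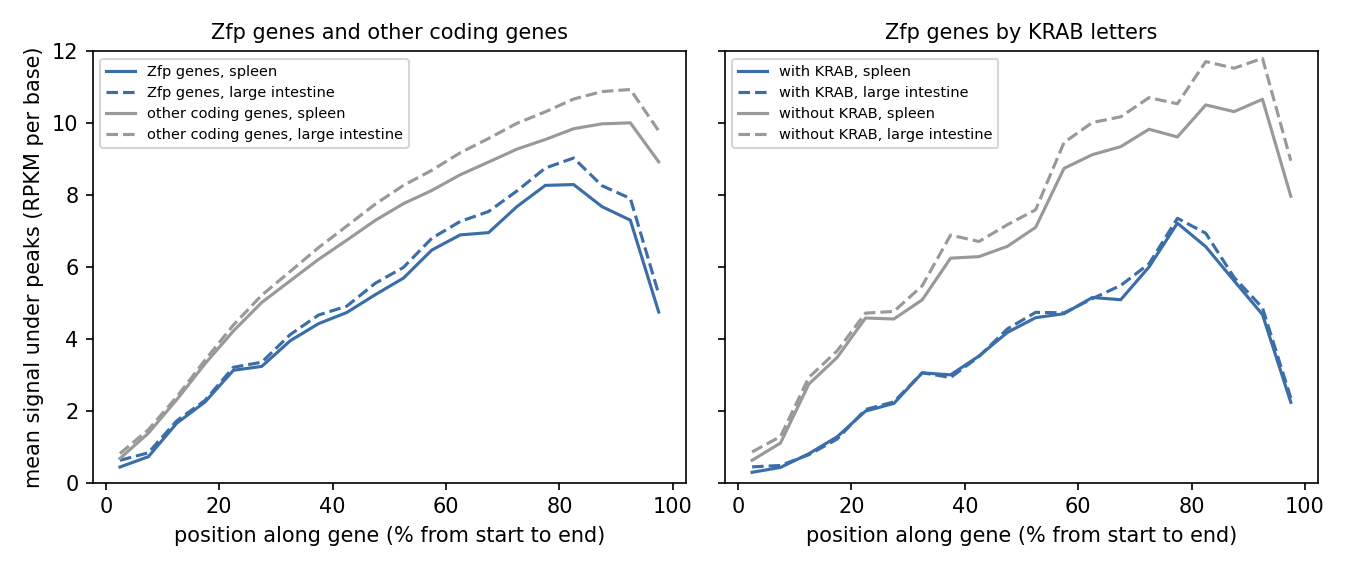
Mean H3K36me3 under peaks (RPKM per base, y axis) in 20 bins along the gene (x axis, percent from start to end), in spleen (solid) and LI (dashed). Left, the 219 Zfp genes peak at 8.30 and 9.04 RPKM and lie below the other 8281 coding genes in every bin; right, members with KRAB letters lie below those without.

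The median Zfp gene carried less of the mark per base than the median other gene with peaks. Without matching for gene length, this did not hold in each protein class. Spread over the gene body, the median member had 3.37 RPKM in spleen and 3.56 RPKM in LI, against 5.02 and 5.25 RPKM in the other coding genes. Peaks covered a median of 27.9% of the gene body against 39.7%. Within ranges of gene length up to 50 kb the difference was present too: under 20 kb the medians were 4.12 and 4.398 RPKM in 122 members and 7.67 and 8.10 RPKM in 3157 other genes. Between 20 and 50 kb they were 2.66 and 2.72 RPKM in 75 members and 5.595 and 5.72 RPKM in 2763 other genes. Among genes of all lengths with a last coding exon of at least 1 kb the difference was smaller. The medians were 2.89 and 2.93 RPKM in 151 members and 3.23 and 3.48 RPKM in 408 other genes, with 25.1% and 25.6% of the gene body under peaks. Of these, genes under 20 kb had medians of 3.82 and 3.90 RPKM in 92 members and 4.51 and 5.61 RPKM in 198 other genes. Between 20 and 50 kb they were 2.01 and 2.07 RPKM in 52 members and 2.57 and 2.88 RPKM in 112 other genes. The KRAB members were lowest among the classes, with 2.53 RPKM in spleen and 2.50 RPKM in LI. Finger genes without KRAB letters had 5.11 and 5.56 RPKM, not below the other coding genes taken at all lengths. These finger genes were shorter, with a median gene length of 18.1 kb against 27.4 kb, and the class medians were not matched for length. Members with fewer fingers had 4.43 and 5.41 RPKM. The median peak was alike, with a length of 467 bp in members and 465 bp in other genes and medians of 10.2 and 10.4 RPKM in spleen. The longest peak of a gene was shorter in members, with a median of 2017 bp against 2815 bp in the other coding genes.

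In most members the last coding exon was covered more fully by peaks than the rest of the gene, and this was common among other genes too. The last coding exon had a median length of 1.34 kb in the members and held 85.2% of the coding sequence, while in other genes it was 0.14 kb long. It lay under peaks for a median of 94.9% of its bases, against 21.4% of the rest of the gene. In 206 of the 219 members (94.1%) a larger part of this exon than of the rest was under peaks, against 78.4% of the other coding genes, in which the medians were 100% of the exon and 38.9% of the rest. The mean signal over the exon was 11.7 RPKM in spleen and 12.2 RPKM in LI, and over the rest of the gene 2.56 and 2.72 RPKM. The 13 exceptions included Zfp59, Zfp667, Zfp69 and Zfp944, whose long last coding exons had no base under a peak.

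Other genes with a long last coding exon showed the same form. In the 408 other genes with a last coding exon of at least 1 kb, a median of 97.02% of it lay under peaks against 19.2% of the rest of the gene, and it exceeded the rest in 373 genes. In the 151 members with such an exon the medians were 90.9% and 19.5%, and it exceeded the rest in 146. The mean signal over the exon was lower in the members, with medians of 10.9 RPKM in spleen and 10.8 RPKM in LI, against 14.3 and 15.4 RPKM. Within the members the 114 KRAB genes with such an exon had 8.70 and 8.79 RPKM over it and the 34 finger genes without KRAB letters 15.4 and 16.3 RPKM. In the 15 genes of the Zbtb family, whose proteins join a BTB domain to fingers, with such an exon the medians were 18.3 and 21.9 RPKM. Zfp445 had its whole last coding exon of 2072 bp under peaks, at 15.7 RPKM in spleen and 12.8 RPKM in LI. Zfp708 had 32.4% of 1358 bp under peaks, at 3.10 and 1.67 RPKM.

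**Figure D5:**
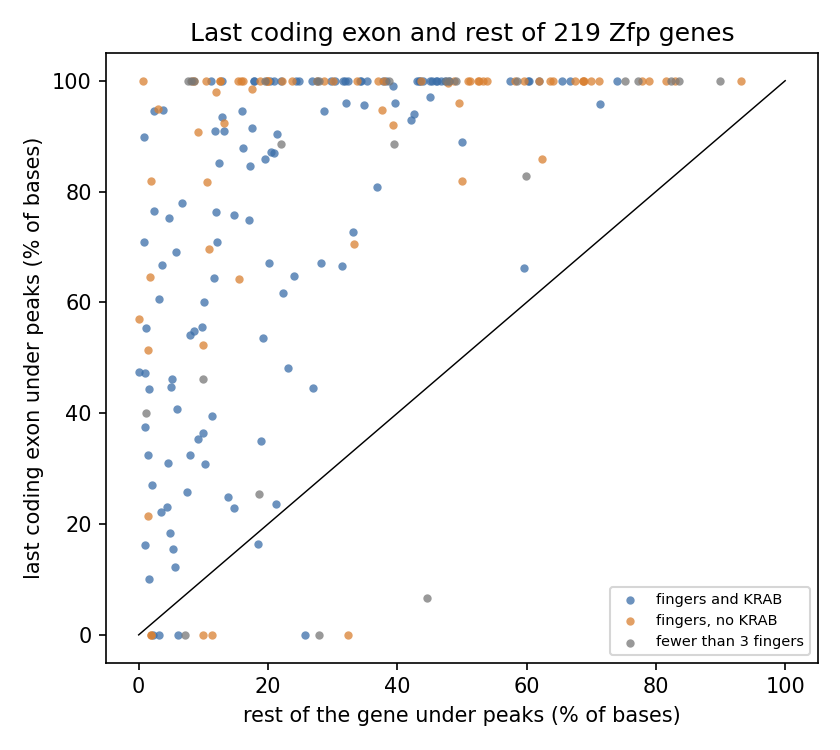
Percent of bases under H3K36me3 peaks in the last coding exon (y axis) against the rest of the gene (x axis) for the 219 Zfp genes, coloured by protein class, with the line of equality. Of the 219 genes 206 lie above the line, with medians of 94.9% in the exon and 21.4% in the rest.

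The related families and the partners of KRAB proteins were compared on the same scale. The 26 Zbtb genes with at least 2 peaks had a median log2 ratio of 0.11, or 0.00 after GC correction, and the 16 Zscan and Zkscan genes had 0.03 and -0.05. Trim28 had 59.1 RPKM in spleen and 63.9 RPKM in LI, a log2 ratio of 0.07 [-0.16 to 0.29]. Setdb1 had 212 and 204 RPKM, a log2 ratio of -0.10 [-0.34 to 0.13]. Of a list of 23 partners of the pathway, 21 had at least 2 peaks, and none passed 2-fold in either direction. Their median log2 ratio was -0.09, with 8 higher in LI and 13 lower. The extremes were Atrx, a chromatin remodeller, at -0.57 [-0.81 to -0.33] and Dnmt1, the maintenance DNA methyltransferase, at 0.41 [0.13 to 0.70].

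Many Zfp genes appear in the study's list of splenic Treg signature genes, which rests on published expression data of other samples, and their H3K36me3 was set beside that of the other genes of the list. The splenic list names 34 Zfp genes, of which 29 were members, and the colonic list names 2. The study's list for RORγt+ Treg cells of the colon names 27, of which 20 were members. Its list for ST2+ Treg cells names 4, with 0 members. The 29 members had a median log2 ratio of -0.08, and 12 of them were higher in LI. None of the 29 was over 2-fold higher in spleen, beside 1.73% of all genes. Of their intervals 3 lay below 0, those of Zfp386, Zfp26 and Zfp39, beside 15.6% of all genes. The other 315 coding genes of the splenic list had a median of -0.34, with 12.1% higher in LI, 40 over 2-fold higher in spleen and 166 intervals below 0. After GC correction the medians were -0.02 in the members and -0.34 in the other genes. Of the 29 members 23 were KRAB genes, and Zfp26, with 155 RPKM in spleen and 134 RPKM in LI and a log2 ratio of -0.26 [-0.51 to -0.01], had the highest signal of those with an interval below 0. The 170 members in no list of Treg signature genes had a median of 0.02.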

How the data were processed

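The 75-nt single-end reads were aligned to mm10, and the authors called peaks with MACS2 (p threshold 0.01) against input. They merged the peaks with bedtools, made RPKM tracks and averaged each over each merged peak. The deposited file is named for raw counts but holds mean RPKM per peak, so no count test was run; the input was not analysed here, and the number of reads per peak is approximate. Here 120910 peaks were placed in GENCODE M21 gene bodies (GRCm38) by their midpoints. Genes with 20 RPKM over both libraries were compared on the log2(value + 0.5) scale, on which changes of low genes come out too small. The members, lists, marker genes and alternatives were chosen with earlier results of these data known. Named genes were the 6 highest and 6 lowest ratios among members with at least 100 RPKM, the 5 of highest signal, 23 genes with known roles, the extremes of the 3 clusters with most members, the longest peak, Trim28 and Setdb1; other named genes were chosen after their values were seen. Fingers (C, 2 residues, C, 12 residues, H, 3 to 5 residues, H) and KRAB letters were counted in proteins translated from GENCODE principal transcripts, a change from the plan to use RefSeq proteins, and the KRAB pattern was widened after seeing genes it left out. The signature lists came from the study's supplement, names only, rest on published expression data of other samples, and were looked at after the ratios. Unique words were 75-base words found at 1 place on either strand. The code for the ratio and its interval was run on simulated data. These were drawn with counting error only and the same reads of 200 bp, so they could not check either assumption. Python 3.11.15, numpy 2.4.6 and pandas 2.3.3 were used.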

Additional observations from a re-analysis of the deposited data

How the results depend on the processing

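No paired analysis was possible because each tissue had 1 library, and no replicate could be left out. Over 94 recalculations of the 8 main values, 74 stayed within 1.5 times a count or within the 95% interval over genes of a median or share, and 20 did not. The count over 2-fold higher in LI (3) was 11 by the strongest peak, and 0 with at least 200 RPKM or at least 5 peaks. The count over 2-fold higher in spleen (1, Zfp708) was 5 by the strongest peak, 2 with totals weighted by length, and 0 with a pseudocount of 5, at least 200 RPKM, at least 5 peaks, peaks of a single coding gene, or GC correction. The median log2 ratio (0.01) was 0.058 without further scaling and 0.073 by the strongest peak. With peaks weighted by length the share higher in LI was 41.1% and the clustered median -0.042. Under this weighting the median log2 ratio was -0.0343 in members and -0.0185 in the other coding genes. The share higher in LI was not counted over all genes in this way. The single median was 0.083 by the strongest peak. The signal position (0.66) was 0.59 with values not weighted by length, 0.58 with each peak counted once and 0.63 with at least 5 peaks, and the share past 75% of the gene (41.9%) was 31.6% and 28.6% under the first 2 of these. GC correction moved the KRAB median to 0.05. Added after seeing the data, reads of 75 bp put 44 intervals above and 40 below 0. Intervals over all genes were not counted with reads of 75 bp, so these counts have no background share beside them. With 1 library a tissue, the spread between mice was not measured.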
